A study of Mus musculus with 6 samples.

Results

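The MS4A genes encode small tetraspan proteins of the cell surface and of endosomes, and 7 members known from myeloid cells and T cells were picked by name from a table of 17382 genes. Of these 7, Ms4a4b, Ms4a4c, Ms4a6b, Ms4a6c, Ms4a6d and Ms4a7 have a row in the table, and all 6 passed the filter on low values that left 13722 genes for testing. Ms4a4a was not analysed here. The family is known for its founding member CD20, the B cell antigen encoded by Ms4a1, and for the beta chain of the IgE receptor of mast cells, encoded by Ms4a2. Ms4a7 and the Ms4a6 genes are expressed in monocytes and macrophages. MS4A proteins are thought to act as partners of other receptors, and Ms4a4b, best known from mouse T cells, associates there with the costimulatory receptor GITR.

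RNA came from bone marrow of C57BL/6 mice aged 2 months, grown for 3 days in medium with 10% serum and M-CSF at 40 ng/mL, a cytokine that drives macrophage growth. The CKO group holds 3 libraries from mice with PD-L1 flox/flox alleles and lysozyme-Cre, a recombinase meant to act in myeloid cells, and the WT group holds 3 libraries from littermates with the PD-L1 flox/flox alleles alone. Both groups therefore carry the floxed alleles. The cultures were sequenced in bulk, so fewer cells of a type and less RNA per cell cannot be told apart.

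The deposited levels are in TPM, that is reads per length of the gene, brought to the same sum in every library, and the whole reads recovered from them sum to between 52355659 and 77318131 per library. The macrophage markers Csf1r and Cd68 had mean levels of 1206 and 2129 TPM in CKO, and 1204 and 2263 TPM in WT. Cd274, which encodes PD-L1, was not lower in the libraries labelled CKO, with 19.3, 19.2 and 29.2 TPM there and 17.9, 15.5 and 23.7 TPM in WT. Lyz2, the lysozyme gene that names the Cre driver, was lower in every CKO library, with 19101, 19354 and 13232 TPM there and 26707, 27493 and 40358 TPM in WT, and it is called in the authors' deposited table (adjusted p = 0.0345) but not by limma over all genes (adjusted p = 0.99999). Which exons are floxed cannot be read from the Cd274 value for the whole gene, so CKO and WT below mean libraries by their labels, and every direction is drawn from those labels. The genotypes were not separated by the leading principal component (44.3% of the variance). CKO 1, CKO 2 and WT 3 lay on its negative side, and CKO 3, WT 1 and WT 2 on its positive side.

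Ms4a6d, Ms4a6c, Ms4a7 and Ms4a6b were abundant in these cultures, while Ms4a4c and Ms4a4b were not. By mean TPM over the 6 libraries they ranked 391, 688, 877, 940, 7496 and 10351 among the 17382 genes. Together the 6 members took 0.121%, 0.129% and 0.0850% of all TPM in CKO 1, 2 and 3, and 0.0775%, 0.0586% and 0.130% in WT 1, 2 and 3. Their sum was thus highest in a WT library and lowest in another, with the CKO libraries between them. The abundant members rest on 4637 to 18055 reads per library, Ms4a4c on 409 to 1080 and Ms4a4b on 57 to 165, so counting error matters most for Ms4a4b.

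Ms4a6d, which in mouse macrophages has been reported to act with the receptor VSIG4 in restraining the inflammasome, was the most abundant of the 6 members in every library. It had 403, 442 and 349 TPM in CKO 1, 2 and 3, against 305, 249 and 446 TPM in WT 1, 2 and 3. WT 3 was the highest of the 6 libraries and the other WT libraries the lowest, so the groups overlapped. Ms4a6c, a paralog of Ms4a6b, had 286, 307 and 180.4 TPM in CKO, against 187, 148 and 307 TPM in WT. Here CKO 3 lay with WT 1 and WT 2, and WT 3 with CKO 1 and CKO 2. Ms4a6d was higher than Ms4a6c in all 6 libraries, by a ratio of TPM between 1.41 and 1.94.

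Ms4a7, a macrophage member of the family also used as a marker of macrophages outside the brain parenchyma, varied most. Its level was 266, 255.6 and 151 TPM in CKO, against 128, 87.4 and 287 TPM in WT. The highest library had 3.28 times the level of the lowest, where this ratio was 1.79 for Ms4a6d. Ms4a6b had 237, 255 and 148 TPM in CKO, against 142, 91.0 and 238 TPM in WT. Again WT 3 reached the level of CKO 1 and CKO 2, and CKO 3 lay near WT 1. Ms4a6c exceeded Ms4a7 in all 6 libraries, while Ms4a7 and Ms4a6b lay close, with a ratio of Ms4a6b to Ms4a7 of 0.891 to 0.998 in CKO and 0.829 to 1.11 in WT.

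**Figure D1:**
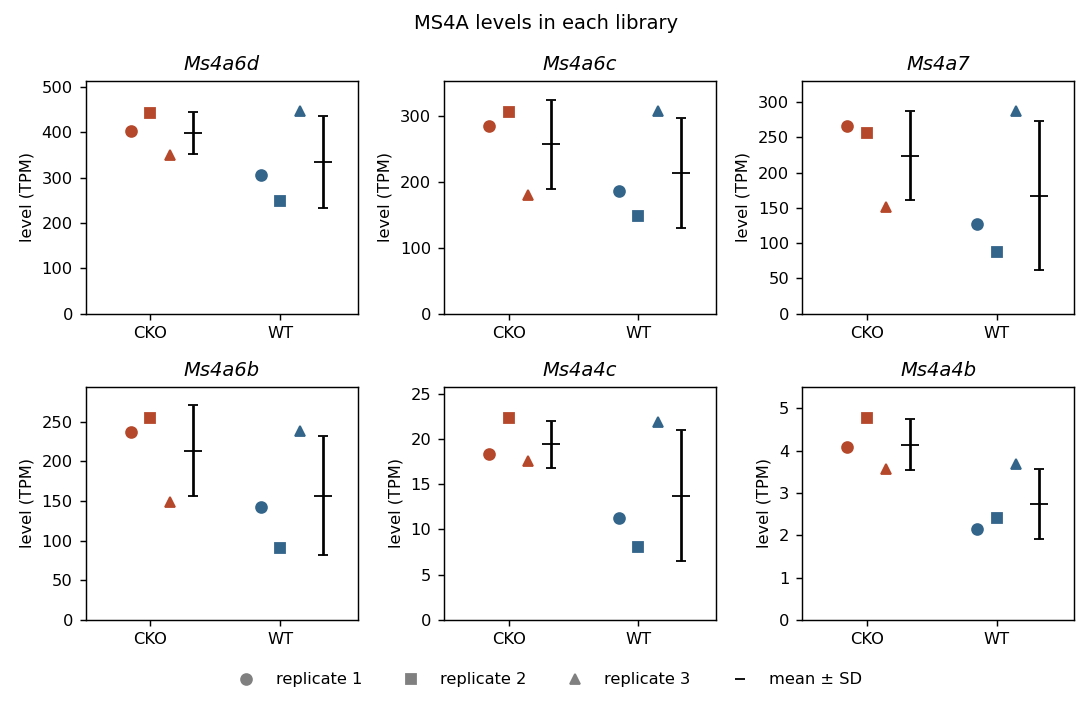
Level in TPM (vertical axis, from 0) of the 6 measured MS4A members in each library, with CKO left and WT right; marker shapes give the replicate number and the bar the mean and SD of 3 libraries. WT 3 lies above CKO 1 for each member except Ms4a4b, where it had 3.69 TPM against 4.08 TPM in CKO 1.

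Ms4a4c and Ms4a4b, paralogs that lie side by side, were the low members. Ms4a4c, known as an interferon-induced gene of mouse myeloid cells, had 18.3, 22.4 and 17.5 TPM in CKO, against 11.2, 8.10 and 21.9 TPM in WT. Ms4a4b had 4.08, 4.78 and 3.57 TPM in CKO, against 2.14, 2.40 and 3.69 TPM in WT. The groups overlapped for both genes, in each case through WT 3. For Ms4a4b that overlap is narrow: CKO 3 had 3.57 TPM and WT 3 had 3.69 TPM, and the other CKO libraries lay above all WT libraries. These levels rest on 109 reads in CKO 3 and 133 reads in WT 3.

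Genotype was tested for all 13722 genes together with limma on log2(TPM + 0.1), two-sided, with Benjamini-Hochberg adjustment. No member passed an adjusted p under 0.05, and over all genes 0% were called. All 6 members had a positive log2 difference (CKO minus WT), as did 51.1% of all genes tested, and their median was 0.54, beside 0.00 over all genes. Ms4a4c and Ms4a4b differed most, by 0.61 ± 0.35 and 0.61 ± 0.23 (estimate ± SE, on the log2 scale). Ms4a7 differed by 0.56 ± 0.45 and Ms4a6b by 0.51 ± 0.37. The differences of Ms4a6c and Ms4a6d were 0.30 ± 0.31 and 0.29 ± 0.22. The adjusted p was 0.99999 for each of the 6 (limma).

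Before adjustment Ms4a4b alone among the members fell under 0.05, as did 2.18% of all genes tested, 1.25% with CKO higher. As a fold its difference was 1.52, with a 95% interval of 1.03 to 2.24 that is not adjusted for the number of genes. The interval of Ms4a7 ran from 0.702-fold to 3.10-fold and that of Ms4a6d, the narrowest, from 0.855-fold to 1.75-fold. The intervals of all members but Ms4a4b include no difference as well as changes in either direction, so a missed threshold does not show that the levels were alike. On the linear scale Ms4a4b averaged 4.15 ± 0.61 TPM in CKO and 2.74 ± 0.83 TPM in WT, and Ms4a7 224 ± 63.2 TPM in CKO and 167 ± 105 TPM in WT (SD, n = 3 each). For none of the 6 did the groups stay apart, while 2.84% of all genes had every CKO library above every WT library.

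In the authors' deposited table none of the 6 is called either, where 0.265% of 17382 genes have an adjusted p under 0.05. The log2 fold changes in the authors' deposited table run from 0.25 for Ms4a6d to 0.59 for Ms4a4b, with unadjusted p-values from 0.0675 for Ms4a4b to 0.302 for Ms4a6c.

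All 6 members followed the division of the libraries along this leading component. For each, CKO 1, CKO 2 and WT 3 were all higher than CKO 3, WT 1 and WT 2, a pattern shared by 22.7% of the genes tested. The gap was wide for Ms4a7, whose lowest value on the negative side was 255.6 TPM and whose highest on the positive side was 151 TPM. It was narrow for Ms4a4c, at 18.3 and 17.5 TPM, and for Ms4a4b, at 3.69 and 3.57 TPM. The sides were read from the expression values themselves, the members included, so these are levels and no test.

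Within the sides the genotype differences were smaller on the negative side and larger on the positive side. On the negative side, where CKO 1 and CKO 2 stand against WT 3, the log2 difference was -0.14 for Ms4a7, -0.11 for Ms4a4c, -0.08 for Ms4a6d, -0.05 for Ms4a6c, 0.05 for Ms4a6b and 0.25 for Ms4a4b. On the positive side, where CKO 3 stands against WT 1 and WT 2, it was 0.52, 0.87, 0.34, 0.12, 0.38 and 0.63 for the same genes in that order. Ms4a4b was thus the one member with each CKO library above each WT library of its side, which held for 15.6% of the genes tested. With a term for the side in the fit its log2 difference was 0.44 and its adjusted p 0.60 (limma). Without WT 2 the differences of Ms4a7 and Ms4a6c were 0.18 and 0.07, and without WT 3 they were 1.04 and 0.60. Leaving out CKO 3 and WT 3 together made all 6 members pass, where 11.1% of 13441 genes passed, 5.49% with CKO higher, but genotype and side then coincide.

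**Figure D2:**
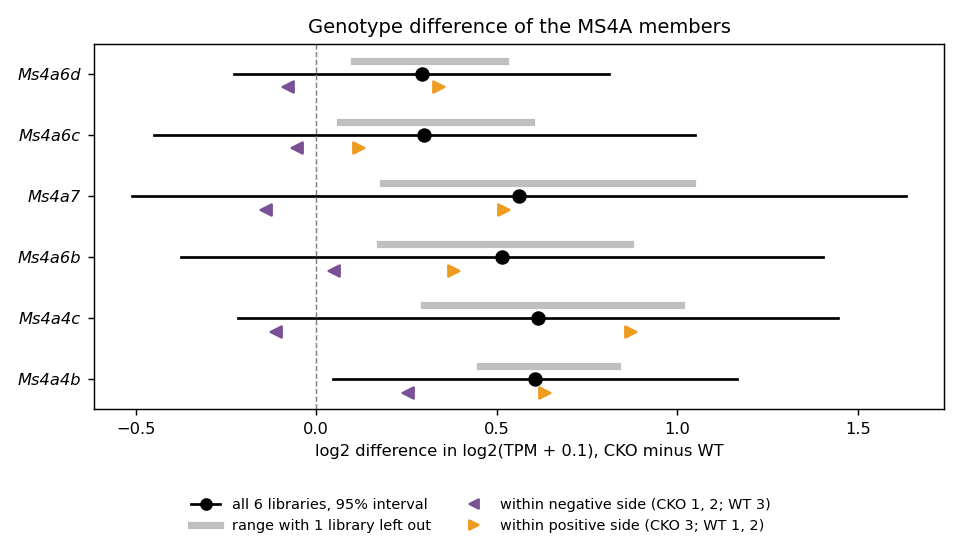
Log2 difference of each measured member, CKO minus WT, on the log2(TPM + 0.1) scale (horizontal axis): black dots and lines give the estimate and its 95% interval from all 6 libraries, grey bars the range with 1 library left out, and triangles the differences within the negative and the positive side. The interval of Ms4a4b, 0.05 to 1.16, is the only black line that stays above 0.

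The 4 abundant members moved together from library to library. Over the 6 libraries the Pearson r of log2(TPM + 0.1) was 0.953 to 0.986 among Ms4a6b, Ms4a6c, Ms4a6d and Ms4a7, and 0.796 to 0.892 between Ms4a4b and the other members. Between Ms4a4c and the 4 abundant members it was 0.876 to 0.980. Such values are not particular to the family. Of 10342 genes compared, 0.851% reached an r of 0.95 with Ms4a6d, 1.22% with Ms4a6b, 2.21% with Ms4a7 and 3.14% with Ms4a6c. The member nearest to each of these came at place 10, 10, 32 and 62. These r values are descriptions over 6 libraries that share the division above. Of the 15 ratios between members, 2 did not overlap between the groups. The levels of 5.12% of all genes tested did not overlap, in either direction. No such share was computed for ratios of other genes, and the 15 ratios share members. Ms4a6b over Ms4a6c was 0.829, 0.831 and 0.820 in CKO, against 0.759, 0.616 and 0.774 in WT. Ms4a4b over Ms4a6d was 0.0101 to 0.0108 in CKO and 0.00701 to 0.00963 in WT. Both were picked out after the ratios had been seen, and 3 libraries against 3 cannot give an exact permutation p under 0.1, so neither was tested.

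Reads of paralogs can be hard to assign. In the annotated transcripts 5.85% of the 50-base windows of Ms4a6c also occur in Ms4a6b, 2.31% of those of Ms4a6d occur in Ms4a6b, and 7.73% of those of Ms4a4c occur in Ms4a4b. At 100 bases no window was shared among the Ms4a6 genes, and 1.66% of those of Ms4a4c occurred in Ms4a4b. No source used here gives the read length or the treatment of such reads, and whether assignment bears on the ratios was not tested.

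The paralogs also share sequence just before their starts, taken from the deposited gene positions. The RefSeq gene starts 2944 bases further upstream for Ms4a4c and 15 bases further upstream for Ms4a6c. By that record the Ms4a4c window lies inside the gene. The 250 bases upstream of Ms4a6b, chr19:11518309-11518558 on the plus strand, and of Ms4a6c, chr19:11469118-11469367 on the plus strand, are shown because the ratio of these paralogs did not overlap between the groups; sequences are from RefSeq on GRCm38.p6, 5′ to 3′, and capitals mark the longest run of letters that both hold.
Ms4a6b: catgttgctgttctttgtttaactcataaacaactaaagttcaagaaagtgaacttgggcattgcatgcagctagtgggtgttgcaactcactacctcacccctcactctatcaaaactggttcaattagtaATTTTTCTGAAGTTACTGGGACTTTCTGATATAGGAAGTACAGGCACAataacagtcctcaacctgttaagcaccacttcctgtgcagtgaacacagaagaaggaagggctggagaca
Ms4a6c: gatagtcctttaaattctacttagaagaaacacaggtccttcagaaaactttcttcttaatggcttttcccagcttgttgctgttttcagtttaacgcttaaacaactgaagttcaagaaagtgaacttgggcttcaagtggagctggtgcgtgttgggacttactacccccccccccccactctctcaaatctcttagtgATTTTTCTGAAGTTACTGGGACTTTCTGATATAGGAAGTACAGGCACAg
The shared run is 48 bases long and occurs in 2 of 32851 promoter windows of the same length, those of these genes. It starts at base -118 in Ms4a6b and at base -49 in Ms4a6c, counted from the gene's start. Over the 175 bases aligned without a gap the windows were 85.1% identical.

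Ms4a4b, chr19:11443308-11443557 on the plus strand, and Ms4a4c, chr19:11407411-11407660 on the plus strand, form the other pair, and their windows are shown for comparison, with the longest shared run in capitals.
Ms4a4b: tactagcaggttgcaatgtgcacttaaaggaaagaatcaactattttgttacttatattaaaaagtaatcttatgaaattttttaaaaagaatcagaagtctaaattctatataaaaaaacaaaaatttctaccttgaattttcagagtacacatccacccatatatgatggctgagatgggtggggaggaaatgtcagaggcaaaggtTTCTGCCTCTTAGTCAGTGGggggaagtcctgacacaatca
Ms4a4c: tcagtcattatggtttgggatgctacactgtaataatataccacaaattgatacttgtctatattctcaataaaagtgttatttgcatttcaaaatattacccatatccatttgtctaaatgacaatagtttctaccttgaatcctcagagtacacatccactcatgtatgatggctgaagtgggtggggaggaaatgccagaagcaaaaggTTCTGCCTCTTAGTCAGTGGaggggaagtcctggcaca
These windows were 78.9% identical over the 232 bases aligned without a gap. The run of 20 bases starts at base -41 in Ms4a4b and at base -38 in Ms4a4c. Windows of all other pairs among the 5 genes in the promoter table shared runs of at most 9 bases. By the same alignment those pairs were 59.3% to 64.7% identical. The letters GAGGAA, one form of the site of the myeloid factor PU.1, were searched on both strands. They were found once in Ms4a4b (base -64), once in Ms4a4c (base -61) and in 23.3% of all promoter windows. These exact letters are not in the windows of Ms4a6b, Ms4a6c and Ms4a7. Shorter or other forms of the site were not searched, so their absence is not shown. The element of type I interferon responses, searched as GAAA followed after 2 bases of any kind by GAAA, and the site TTCNNNGAA of interferon gamma responses, present in 2.98% and 7.02% of all windows, are in none of the 5 windows searched. Ms4a6d was not in the promoter table.

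Ms4a4b is best known as a T cell gene, and T cell genes were scarce in these cultures. The CD3 chains Cd3e, Cd3d, Cd3g and Cd247 together had 63, 88 and 71 reads in CKO, against 13, 20 and 26 reads in WT, while Ms4a4b had 152, 165 and 109 reads in CKO, against 57, 94 and 133 reads in WT. Within WT the libraries with more CD3 chain reads also had more Ms4a4b reads. Within CKO they did not, as CKO 3 had more CD3 chain reads than CKO 1 but fewer Ms4a4b reads. These reads are not scaled to the depth of the libraries, and Cd247 alone gave 3, 14 and 13 of the CD3 chain reads in WT 1, 2 and 3. The proportion of Ms4a4b to CD3 chain reads differed between the groups. Ms4a4b reads per CD3 chain read were 2.41, 1.88 and 1.54 in CKO, against 4.38, 4.70 and 5.12 in WT, and the groups did not overlap. WT 3 had the most reads of both within WT. The ratio counts reads and is not a level per length, it was chosen after the values were seen, and it was not tested.

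Per length Ms4a4b was above Cd3e and Cd8a in every library. By group mean it was below Nkg7, a granule gene of NK and cytotoxic T cells, in both groups. In CKO 1, CKO 2 and WT 3, however, Ms4a4b was above Nkg7. It averaged 4.15 TPM in CKO and 2.74 TPM in WT, where Cd3e averaged 0.349 and 0.0443 TPM and the coreceptor gene Cd8a 0.563 and 0.0978 TPM in CKO and WT. Nkg7 averaged 4.63 TPM in CKO and 3.20 TPM in WT. The log2 difference of Ms4a4b, 0.61 ± 0.23, lay within the range of the tested T and NK cell markers, from -0.29 for Cd2 to 2.30 for Cd3g. Cd247, Cd5, Klrd1 and Nkg7 lay below it at 0.41, 0.37, 0.35 and 0.53, and Cd3e and Cd8a above it at 1.66 and 1.75. Adding 0.1 TPM shrinks the differences of low genes, so this order depends on the scale. In the authors' deposited table the log2 fold changes of Cd247 and Cd5, 0.723 and 0.593, lay above that of Ms4a4b, 0.588. Those of Klrd1 and Nkg7, 0.36 and 0.54, lay below it there as well. Of 22 T and NK cell markers 19 have a row and 14 were tested. Limma called 0 of these 14, and 13 had a positive difference. For 10 the groups did not overlap, with CKO higher, where 2.84% of all genes did so. Some markers passed the filter through CKO alone, so these counts are partly set by it. The authors' deposited table calls Il2rb, Cd8a, Gzmb, Cd3g, Cd3e and Prf1 higher in CKO, as it does 0.242% of all genes. Cd3d, Cd247, Cd8b1, Cd2, Cd5, Cd6, Lck, Thy1, Klrd1, Nkg7, Gzma and Ncr1 are not called there. Prf1 was not among the 14. The summed level of the 19 was 11.3, 16.1 and 17.1 TPM in CKO, against 9.60, 7.07 and 8.69 TPM in WT. In WT 1 Gzmb and Gzma were at 0 reads, in WT 2 Gzma and Ncr1, and in WT 3 Cd3e, Gzma, Prf1 and Ncr1; no marker with a row was at 0 in CKO. The part of T cells in the level of Ms4a4b was not tested.

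**Figure D3:**
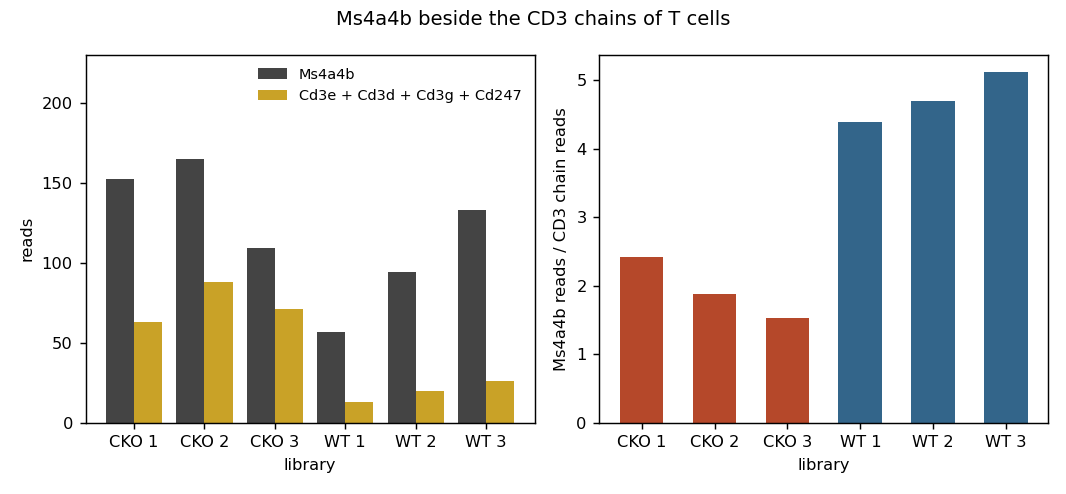
Left, reads of Ms4a4b (dark bars) and summed reads of 4 CD3 chain genes (yellow bars) in each library; right, Ms4a4b reads per CD3 chain read, with CKO libraries left of WT. The ratio is 1.54 to 2.41 in CKO and 4.38 to 5.12 in WT.

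The measured members lie within 573 kb on chromosome 19 (mm10, 11067471 to 11640834), in a cluster that holds 11 rows named Ms4a. In this order along it come Ms4a7 (11321039 to 11336146, minus strand), Ms4a4c (11407661 to 11427246, plus), Ms4a4b (11443558 to 11463548, plus), Ms4a6c (11469368 to 11482196, plus), Ms4a6b (11518559 to 11530403, plus) and Ms4a6d (11586606 to 11604804, minus). Cd274 lies on the same chromosome, 17.7 Mb away. Ms4a3, a gene of granulocyte and monocyte precursors at the far end of the cluster, had 14.3, 12.3 and 13.2 TPM in CKO, against 15.8, 9.78 and 12.5 TPM in WT, a log2 difference of 0.09 ± 0.18. Unlike those of the members, its levels did not separate the sides.

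The remaining family members mark other cells and were low. Ms4a1 had 8.11, 13.7 and 7.05 TPM in CKO, against 10.1, 14.2 and 11.4 TPM in WT, the only negative difference among the family genes tested (-0.35 ± 0.27). Of 8 B cell markers all had a negative difference, with a median of -0.52 and 0 called, and for 3 the groups did not overlap, where 5.12% of all genes did not in either direction. Their summed level was 57.9 to 97.6 TPM in CKO and 92.3 to 116 TPM in WT, and their part in the level of Ms4a1 was not tested. Ms4a2 had 0.612, 0.894 and 0.746 TPM in CKO, against 0.721, 0.560 and 0.807 TPM in WT. Ms4a8a, with 7, 11 and 2 reads in CKO and 5, 1 and 8 reads in WT, was higher on the negative side like the members, though on few reads. Ms4a4d rested on 0 to 3 reads per library, and 0 reads in WT 2 allow up to 3 reads, or 0.0388 CPM, for counting error only. Of 15 other family genes 7 have a row, 6 were tested and 0 were called, with 5 positive differences and a median of 0.06.

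Tmem176b and Tmem176a, relatives of the MS4A family on another chromosome that are known from myeloid and dendritic cells, swung with the sides more widely than the members. Tmem176b had 32.7, 28.1 and 8.16 TPM in CKO, against 14.98, 12.4 and 38.2 TPM in WT. Its highest library had 4.68 times the level of its lowest, and its log2 difference was 0.03 ± 0.63.

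**Figure D4:**
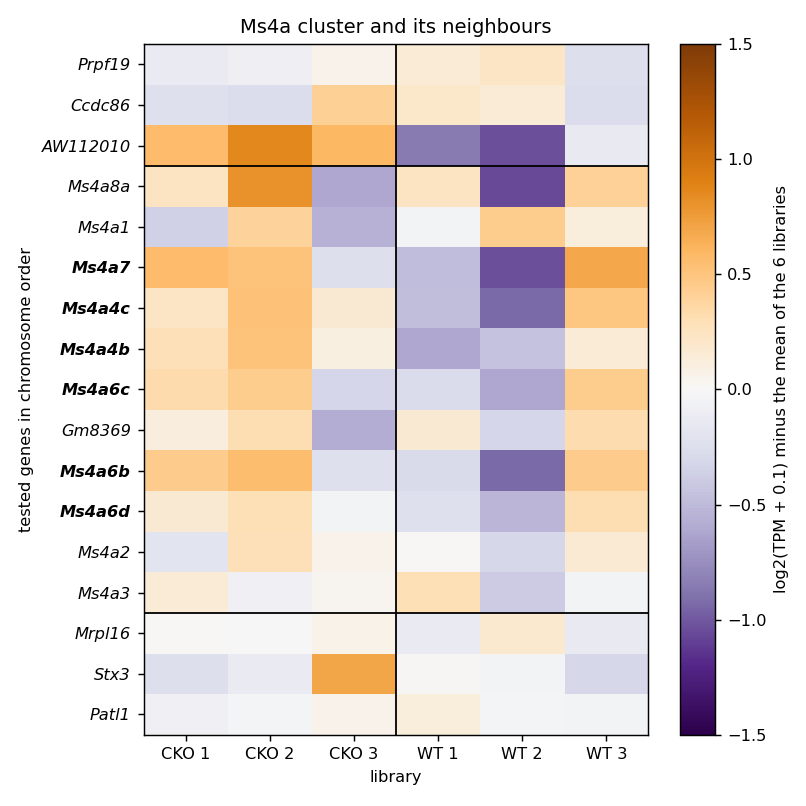
Log2(TPM + 0.1) minus the mean of the 6 libraries (colour) for the tested genes of the Ms4a cluster and the 3 tested genes on either side, in chromosome order down the page, with CKO libraries left of WT; members are in bold and horizontal lines bound the cluster. The members share a pattern in which WT 2 is low and WT 3 high, except Ms4a4b, lowest in WT 1; Patl1 and Mrpl16 vary little.

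The nearest tested gene outside the cluster, the long noncoding RNA gene AW112010, 16.9 kb from it, had 24.7, 30.3 and 25.1 TPM in CKO, against 9.20, 8.09 and 15.1 TPM in WT. Its groups did not overlap, and its log2 difference of 1.35 ± 0.24 did not pass over all genes (limma adjusted p = 0.83), while it is called in the authors' deposited table (adjusted p = 0.00313). Ccdc86 and Prpf19 beyond it differed by -0.06 ± 0.22 and -0.09 ± 0.13. On the other side Mrpl16, Stx3 and Patl1 differed by 0.04 ± 0.10, 0.22 ± 0.25 and -0.03 ± 0.08, and none of these passed.

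Genes reported as partners of MS4A proteins had small differences, except Vsig4. Of 9 listed, all were tested, 0 were called and 3 had a positive difference, with a median of -0.05. Clec7a, the fungal receptor dectin-1 that binds MS4A4A in macrophages, had 104.6 ± 37.3 TPM in CKO and 116 ± 24.9 TPM in WT (SD, n = 3 each). Trem2, the lipid receptor of macrophages, had 835 ± 101 TPM in CKO and 862 ± 84.9 TPM in WT. Tnfrsf18, which encodes GITR, rested on 9 to 19 reads per library. Vsig4 is a complement receptor of resident macrophages and had 0.802, 0.993 and 1.04 TPM in CKO, against 2.01, 4.198 and 2.15 TPM in WT. Its groups did not overlap, and its difference of -1.40 ± 0.30 did not pass over all genes (limma adjusted p = 0.99999). In the authors' deposited table Vsig4 is called, lower in CKO (adjusted p = 0.0187).

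All 28 genes of the interferon gamma list had a positive difference, as did 51.1% of all genes, with a median of 0.70 and 0 called. For 21 the groups did not overlap, where 2.84% of all genes had every CKO library above every WT library. The median was 0.57 without WT 2 (24 of 28 positive), 0.82 without CKO 1 (25 of 27) and 0.51 without CKO 3 (27 of 27). With a term for the side 26 of 28 were positive. Where a CKO library was left out 27 genes were tested, so the filter partly sets these counts. The summed level of the interferon gamma list was 1658, 1704 and 2000.1 TPM in CKO, against 1306, 1082 and 1433 TPM in WT. Of 25 type I interferon genes 24 were positive, with a median of 0.29 and 0 called; their summed level was 1663, 1762 and 2457 TPM in CKO, against 1569, 1268 and 1882 TPM in WT, so WT 3 lay above CKO 1 and CKO 2. The type I median was 0.14 without CKO 3 (20 positive), 0.12 without WT 2 (18 positive) and 0.45 without CKO 1 or without WT 3. CKO 3, the highest library of both lists, was the lowest CKO library for all 6 members. It also lies on the other side of the leading component from CKO 1 and CKO 2. Against the mean of WT 1 and WT 2, on its own side, the members differed by 0.12 (Ms4a6c) to 0.87 (Ms4a4c) on the log2 scale. Whether interferon bears on the levels of the members was not tested. The macrophage and monocyte lists had medians of 0.05 and 0.06 over 11 tested genes each, with 0 called, and mast cell, neutrophil precursor and dendritic cell lists medians of -0.003, 0.08 and -0.07, with 0 called.

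The genes whose levels followed each member most closely were looked up among 10342 named autosomal genes with at least 1 TPM, by Pearson r of log2(TPM + 0.1) over the 6 libraries. For Ms4a7 they were Mr1, Narf, Slc11a2, Trim16 and Znrf1, with r from 0.998 to 0.994, and 2.21% of genes reached an r of 0.95. Mr1, which encodes an antigen-presenting molecule related to MHC class I, had 30.2, 30.2 and 23.8 TPM in CKO, against 21.2, 18.1 and 31.3 TPM in WT. For Ms4a6c they were Tspan32, P2ry14, Ensa, Dnajb5 and Ythdf3, with r from 0.997 to 0.993. P2ry14, the receptor of UDP-glucose, had 11.5, 11.5 and 5.80 TPM in CKO, against 5.99, 4.03 and 11.3 TPM in WT. For Ms4a6b the list was Hsf4, Stx2, Trp53inp2, Adi1 and Ensa, and for Ms4a6d Exoc3l4, Erlec1, Pml, Mefv and Hsf4, all with r of at least 0.990.

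Ms4a4c ran closest to Ifi203, Zfp386, Mndal, Nub1 and Ms4a6d, with r from 0.985 to 0.980. Ifi203 and Mndal belong to the interferon-inducible family of nucleic acid sensors on chromosome 1; Mndal had 168, 183 and 160.3 TPM in CKO, against 124, 116 and 189 TPM in WT. Ms4a4b ran closest to Ttf1, Tgs1, Tcea3, Cept1 and Aim2, with r from 0.994 to 0.9745. Aim2, a cytosolic DNA sensor of the same sensor family, had 61.2, 65.7 and 62.1 TPM in CKO, against 50.4, 54.1 and 59.8 TPM in WT. Most T cell markers average under 1 TPM and so were not among the genes compared. The best member for Ms4a4b, Ms4a4c, came at place 178. With 6 libraries and so many genes high values of r are common, and they carry no p.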

How the data were processed

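RNA was measured in 6 bulk cultures. Tools and build per the submitters' processing notes were mm10, TopHat2 2.0.12, featureCounts, Subread, edgeR, Picard 1.127 and FastQC 0.11.2, with no roles or options. The authors deposited 1 TPM value per gene and library (unit judged from the equal column sums). Per the file headers the table also holds the authors' log2 fold change and log2 CPM, a likelihood ratio score, and p-values; a positive fold change there means higher in CKO, from the values.

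The ratio of 2 libraries' values of a gene is a ratio of whole numbers, and 100% of 94034 values above 0 were recovered as whole reads within 0.001. For 427 genes the common factor came from the authors' log2 CPM. Genotype was tested with limma 3.58.1 (R 4.3.3, mean-variance trend) on log2(TPM + 0.1), keeping a gene where 3 or more libraries had 0.1 TPM or more; this scale understates the fold changes of low genes. Whether the libraries of a group came from separate mice is not said, so p-values cover the spread among these libraries, which may be technical. Scripts were tested on simulated data. Recovered reads were modelled with limma-voom as an alternative. Starts are printed counting from 1. Positions of the members in RefSeq of the same build overlapped those of the table, and all but Ms4a4c and Ms4a6c lay within 1 base at both ends. The members, lists and tests were chosen with earlier results of these data known. Named genes are the members, the rest of the family, up to 4 genes per list by p, the 5 genes most like each member and 3 neighbours on either side of the cluster; the text gives those a result turns on, and markers such as Csf1r, Cd68, Trem2, Lyz2, Nkg7 and Cd2 were named after their values were seen.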

Additional observations from a re-analysis of the deposited data

How the results depend on the processing

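The differences of the 6 measured members stayed positive and none passed under the other pseudocounts, filters, scalings and trend setting, under limma-voom or with a term for the side. No gene was called in any of these fits. Over the fits that each lacked 1 library, log2 differences spanned 0.45 to 0.83 for Ms4a4b, 0.30 to 1.01 for Ms4a4c, 0.18 to 0.87 for Ms4a6b, 0.07 to 0.60 for Ms4a6c, 0.10 to 0.52 for Ms4a6d and 0.18 to 1.04 for Ms4a7, with the lowest adjusted p at 0.40. Without both CKO 3 and WT 3, where genotype and side coincide, 1496 of 13441 genes (11.1%) were called and the members Ms4a4b, Ms4a4c, Ms4a6b, Ms4a6c, Ms4a6d and Ms4a7 differed by 0.93, 1.08, 1.11, 0.83, 0.61 and 1.30, with adjusted p-values from 0.023 to 0.037 (limma). Higher in CKO that fit called 6 of 6 members and 2 of 6 other MS4A family genes, where 5.49% of all genes were called so. It also called 17 of 27 interferon gamma and 2 of 25 type I interferon genes higher in CKO. The same held for 2 of 10 T and NK cell and 3 of 11 macrophage genes, while 1 of 6 mast cell genes was called lower. With the side term Ms4a8a, Tmem176a and Tmem176b changed sign, to -0.0468, -0.57 and -0.53. With 1 library left out Ms4a2, Ms4a3, Ms4a8a, Tmem176a and Tmem176b also changed sign, within -0.0337 to 0.22, -0.0841 to 0.26, -0.18 to 0.66, -0.35 to 0.70 and -0.34 to 0.65. The causes were not tested.

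A replicate block left 0 genes called, as without it, and 232 in place of 299 genes at an unadjusted p under 0.05 (limma); limma-voom gave 0 and 308. Deviations of same-numbered libraries correlated at -0.24, -0.15 and -0.53 and no CKO library correlated best with its own number, so the numbers were not taken to pair the samples.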
